A study of Schizosaccharomyces pombe with 15 samples.

Results

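Polynucleotide kinase (PNK) was left out of 1 of the 2 libraries made from an rrp6Δ strain of fission yeast, Schizosaccharomyces pombe, and the 3′ ends of U6 read in the 2 libraries were set against each other. These are 2 of the 15 samples of the series, chosen by their titles. Both came from strain CAF374, which lacks rrp6 and carries no other deletion in its labels. The cells were growing logarithmically in YES medium at 30 °C. In the library rrp6Δ (NO PNK) the total RNA went to adapter ligation without PNK, and in the library rrp6Δ it was first treated with it. Each is the only library of its kind, so there is no spread between replicates and no test was made. Set beside them are wt (strain CAF13) without and with PNK, and the PNK-treated mpn1Δrrp6Δ (strain CAF375). The files list only U6 ends, so neither the deletion of rrp6 nor the omission of PNK could be checked against the data.

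U6 is the small nuclear RNA at the catalytic centre of the spliceosome. RNA polymerase III makes it and stops within a run of Ts, so new U6 ends in Us, and the exonuclease Mpn1, called USB1 in humans, trims that run. Human USB1 leaves a cyclic phosphate at the last U, and such an end has no free hydroxyl. Rrp6 is an exonuclease of the nuclear exosome, and the TRAMP complex adds As to RNAs that the exosome handles. RNA ligase joins the adapter to a free 3′ hydroxyl only. PNK takes off a 3′ phosphate, cyclic ones included, so an end that carries one is read after PNK and missed without it, whereas an end made by a polymerase, such as an added A, needs no PNK. The comparison asks which plain U ends are blocked in this way.

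U6 is encoded by snu6, on chromosome I (minus strand) in the ASM294v3 assembly, with exon 2 at 2562276 to 2562323. One A at 2562275 separates the annotated gene from the encoded run of 9 Ts at 2562266 to 2562274. The stretch below, chromosome I 2562256 to 2562323 read on the minus strand, is shown because the plain U and A-tailed ends start in its T run, which is in capitals.
U6 exon 2 to past the T run: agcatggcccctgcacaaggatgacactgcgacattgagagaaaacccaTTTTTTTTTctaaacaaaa
The ends that carry the result are written here as DNA, with T for U, and capitals mark bases after the U run.
4 Us alone: tttt
5 Us alone: ttttt
6 Us alone: tttttt
4 Us and 1 A: ttttA
5 Us and 1 A: tttttA
5 Us, C and A: tttttCA
4 Us, C and A: ttttCA

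There were 649415 reads with an end sequence in rrp6Δ (NO PNK) and 705616 in rrp6Δ. Each file also had 1 line with a count and no sequence, kept apart from all shares, with 21493 reads (3.20% of all reads, exact 95% interval 3.16 to 3.25) without PNK and 15879 (2.20%, 2.17 to 2.23) with it. An end with a count of 0 could hold up to 0.000462% of reads without PNK and 0.000425% with it. All intervals here cover counting error alone, since PCR copies were not marked by molecular identifiers. In neither library did more than 1 read hold an N, so these libraries do not stand apart by that measure.

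Without PNK, plain U6 ends were scarcer and A-tailed ones commoner. Ends of Us alone held 40.1% of reads without PNK (40.0 to 40.2) and 57.1% with it (56.9 to 57.2). Ends of Us followed by As alone, called A-tailed here, held 55.3% without PNK (55.2 to 55.5) and 39.1% with it (39.0 to 39.2), which makes their ratio of shares 1.41 (1.41 to 1.42). The remaining reads were few in both libraries, with 3.43% and 3.05% in ends with other tails.

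Ends were described one by one where both libraries had at least 100 reads. That gave 8 plain U ends, of 1 to 8 Us, out of 13 seen, and 19 A-tailed ends out of 77 seen. The 8 plain ends held 99.9% of plain U reads without PNK, and the 19 A-tailed ends 99.7% of A-tailed reads. The end just inside this minimum was 4 Us and 4 As, with 149 reads without PNK and 116 with it. Just outside stood 9 Us alone with 111 and 98 reads, and 1 U with 4 As with 90 and 113 reads.

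Plain U ends of different length went different ways. The end of 5 Us, the commonest of all ends in the PNK-treated library, held 8.31% of reads without PNK against 28.1% with it. The end of 6 Us held 5.10% without PNK against 10.5% with it. That of 7 Us held 0.795% against 1.31%, and that of 8 Us 0.141% against 0.175%. All 4 were scarcer without PNK, and the shorter the run among them, the larger the loss: their ratios of shares were 0.296, 0.486, 0.608 and 0.807.

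The shorter plain ends held more of the reads without PNK. The 1-U end held 7.30% without PNK against 4.95% with it, that of 2 Us 5.52% against 3.77%, and that of 3 Us 3.97% against 2.73%. The 4-U end held 8.96% against 5.53%, with a ratio of 1.62, which made it the commonest plain end of the library without PNK. The change of direction thus falls between 4 and 5 Us, 1 nt apart.

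**Figure D1:**
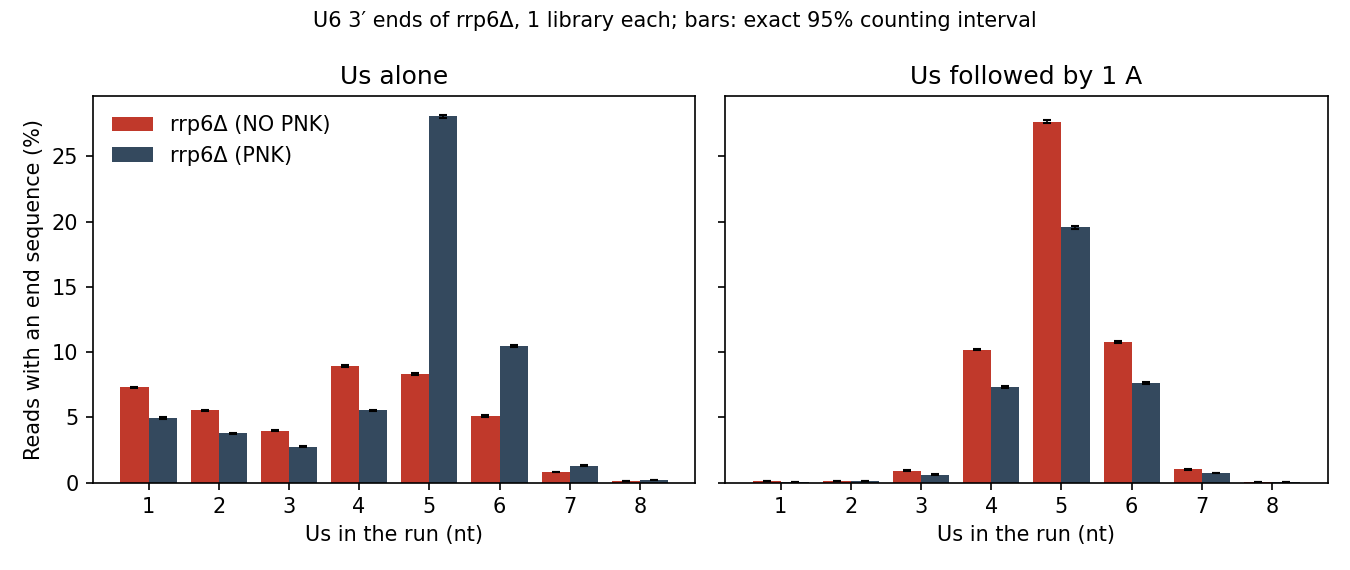
Share of reads (%) in rrp6Δ by the number of Us, for ends of Us alone (left) and of Us followed by 1 A (right); red is the library without PNK, blue the one with it, and error bars are exact 95% counting intervals. Without PNK the 5-U and 6-U ends are lower, at 8.31% against 28.1% and 5.10% against 10.5%, while ends of 1 to 4 Us and all ends with 1 A are higher.

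Shares of one library sum to the whole, so a loss of some ends raises the others. A size rule of 1.5 times was used to call a difference, since there is no replicate. By shares, 1 of the 8 plain U ends and 3 of the 19 A-tailed ends were higher, against 29.7% of all 64 ends of any class that had 100 reads in both libraries. The 3 A-tailed ends were tA, tttAA and ttttAAA. Lower by shares were 3 of the 8 plain U ends and no A-tailed end, against 9.38% of the 64. The median ratio of shares was 1.42 over the A-tailed ends and 1.43 over the 64.

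The A-tailed ends moved nearly as one and were taken as a yardstick. The commonest, 5 Us and 1 A, held 27.7% of reads without PNK against 19.6% with it, a ratio of shares of 1.41 (1.40 to 1.42). The end of 4 Us and 1 A held 10.2% against 7.30%, and that of 6 Us and 1 A 10.8% against 7.63%, with ratios of 1.40 and 1.42. With 2 As, the end of 5 Us held 2.07% against 1.42%. The length of the A tail hardly differed: a single A made up 92.0% of A-tailed reads without PNK (91.9 to 92.1) and 92.1% with it (92.0 to 92.2), and 2 As made up 7.02% and 6.92%. The mean U run of A-tailed reads was 4.99 nt in both libraries, with a difference of -0.00240 nt (-0.00641 to 0.00160).

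When each end was expressed per A-tailed read, the ratio without PNK over with PNK is 1 for an end that kept step with the A-tailed ends. The 8 A-tailed ends that reached 1000 reads in each library had ratios from 0.974 to 1.05, whether they held 3 or 7 Us and 1 or 2 As. These ends are part of the total they are divided by. The end tttttA alone made up 50.0 of 100 A-tailed reads in each library. Values near 1 for the commonest ends are therefore partly fixed by the scaling. Over all 19 the range was 0.755 to 1.41, and its extremes had under 1000 reads in each library. The lowest was tttAAA, with 179 reads without PNK and 182 with it (interval 0.611 to 0.934). The highest was tA, with 780 and 426 (interval 1.25 to 1.59). Neither interval held 1. Ends with 2 As had ratios from 0.974 to 1.15, and the ends of 4 and of 5 Us with 4 As had 0.987 and 1.01. For 13 of the 19 the counting interval held 1. On this scale none of the 19 was past 1.5 times in either direction. Just outside the minimum, 1 U with 4 As was past it, at 0.612 (0.459 to 0.814). Whether A-tailed ends as a whole were ligated equally in both libraries was not tested.

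On the same scale the plain U ends of 1 to 4 Us lay at or a little above the A-tailed ends, and those of 5 to 8 Us well below them. The ratio was 1.04 (1.03 to 1.06) for 1 U, 1.04 (1.02 to 1.05) for 2 Us, 1.03 (1.01 to 1.05) for 3 Us and 1.14 (1.13 to 1.16) for 4 Us. The first 3 lie within the range of those 8 A-tailed ends and the 4-U end above it, and for none of the 8 plain U ends did the counting interval hold 1. For 5 Us the ratio was 0.209 (0.207 to 0.211), with 15.0 reads per 100 A-tailed reads without PNK against 71.7 with it. For 6 Us it was 0.344 (0.339 to 0.348), with 9.22 against 26.8 reads. For 7 Us it was 0.430 (0.415 to 0.445), with 1.44 against 3.34 reads, and for 8 Us 0.571 (0.523 to 0.622), with 0.255 against 0.448 reads. The 4 ends of 5 to 8 Us were lower past 1.5 times, against 15.6% of the 64 ends. None of the 64 was higher past 1.5 times. The median of the scaled ratio was 0.799 over the 8 plain ends, a value that lies between the short and the long ones, and 1.01 over the 64 ends.

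Against the counts that the A-tailed yardstick predicts, the 5-U reads without PNK were 79.1% fewer and the 6-U reads 65.6% fewer. The 7-U reads were 57.0% fewer and the 8-U reads 42.9% fewer. The prediction assumes that A-tailed ends were ligated equally in both libraries, which was not tested. The plain U reads of the PNK-treated library correspond to 524068 reads on the yardstick, and 260542 were found. Of this shortfall of 263526 reads, the 5-U end made up 77.4% and the 6-U end 24.0%. The 7-U end made up 2.60% and the 8-U end 0.262%. The sum passes the whole because the ends of 1 to 4 Us were above the yardstick. The 9-U end, outside the minimum, had a ratio of 0.870 with an interval of 0.657 to 1.15.

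**Figure D2:**
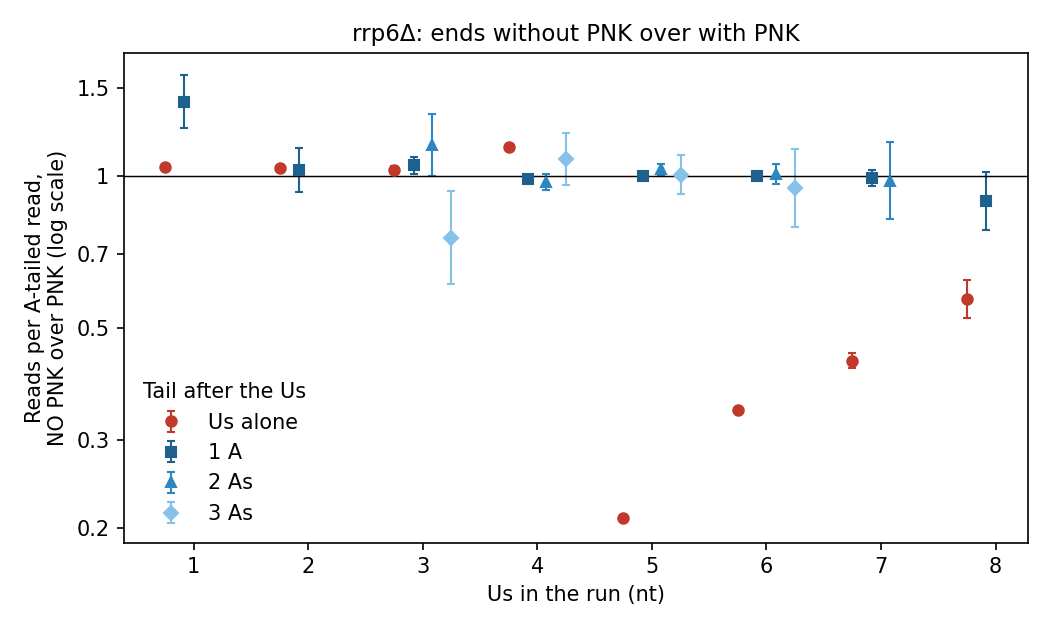
Reads per A-tailed read in rrp6Δ, without PNK over with PNK (log axis), against the number of Us, for ends of Us alone and ends with 1, 2 or 3 As, the 2 ends with 4 As left out; error bars are exact 95% counting intervals. Ends of 1 to 4 Us lie at 1.03 to 1.14 beside the A-tailed ends, and those of 5, 6, 7 and 8 Us lie at 0.209, 0.344, 0.430 and 0.571.

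What was left of plain U6 without PNK was accordingly shorter. Ends of 1 to 4 Us made up 64.2% of plain U reads without PNK and 29.8% with it, and the 5-U end 20.7% and 49.2%. The mean run of plain U ends was 3.62 nt without PNK and 4.50 nt with it, a difference of -0.884 nt (-0.892 to -0.876), past a limit of 0.5 nt.

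The share of ends with As at a given U run shows the same contrast between 4 and 5 Us without any scaling between libraries. It is made from the same counts as the scaled ratios, so it is not separate support for them. Among reads of 5 Us, with or without As, 78.3% (78.1 to 78.4) were A-tailed without PNK and 43.0% (42.8 to 43.1) with it. Among those of 6 Us it was 69.3% against 43.7%, and among those of 7 Us 57.2% against 36.8%. Reads of 4 Us went the other way by a little, with 55.8% (55.5 to 56.1) A-tailed without PNK and 59.4% (59.1 to 59.7) with it. Reads of 3 Us had 20.7% against 20.4%, those of 2 Us 3.13% against 3.12%, and those of 1 U 2.35% against 1.94%. With PNK the A-tailed share was therefore highest at 4 Us, and without it at 5 Us.

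**Figure D3:**
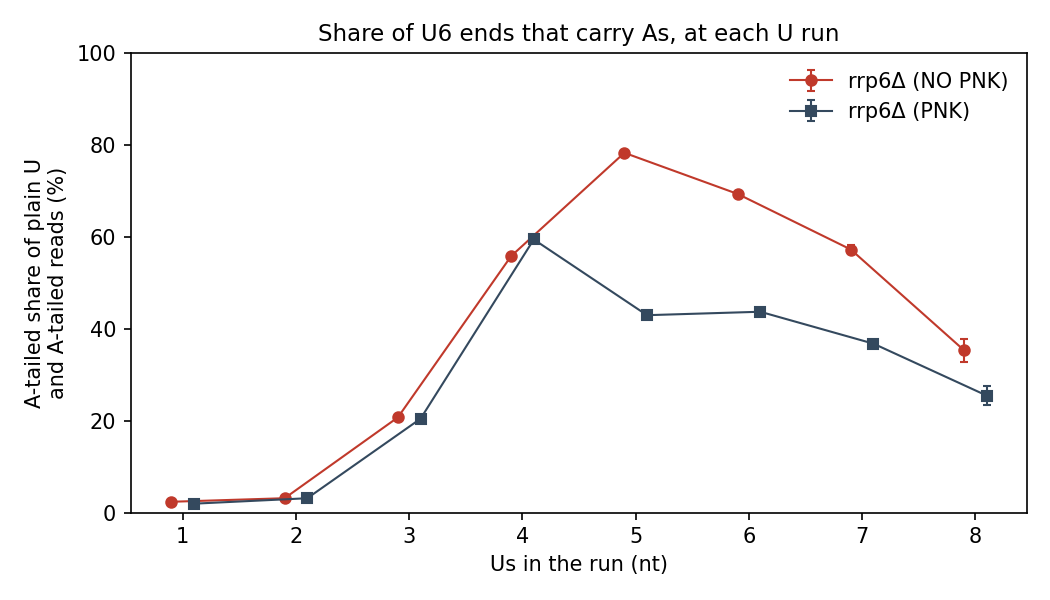
A-tailed reads as a share (%) of plain U and A-tailed reads in rrp6Δ, at each number of Us, without PNK (red) and with PNK (blue); error bars are exact 95% counting intervals. The lines lie close up to 3 Us, that without PNK is a little lower at 4 Us (55.8% against 59.4%), and it is far higher at 5 Us (78.3% against 43.0%).

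Tails of C, CA or CCA directly after the Us were lower past 1.5 times after 5 or 6 Us and not after 1 to 4 Us, in a set chosen after its values were seen. After 5 Us, the tail CA, the commonest end of any other class in the PNK-treated library, had 645 reads without PNK against 1488 with it, a scaled ratio of 0.333 (0.303 to 0.365). The tails C and CCA after 5 Us had ratios of 0.570 and 0.311, and C and CA after 6 Us had 0.559 and 0.396. After 4 Us the tail CA went the other way, with 1098 reads against 585 and a ratio of 1.44 (1.30 to 1.60). The tail C after 3 Us had 0.832 (0.676 to 1.02). Summed over C, CA and CCA, the ratio was 1.27 after 1 to 4 Us and 0.417 (0.394 to 0.441) after 5 or 6 Us. Tails of G or GA after 5 or 6 Us had 1.05 (0.985 to 1.12). Tails of AC or ACA there had 1.10 (1.04 to 1.17), a little above the A-tailed ends as a whole. The tail ACCA after 5 Us had 0.631 (0.510 to 0.779), which is lower past 1.5 times. The end tttttG had 1254 reads without PNK against 849 with it, and tttttACA 1177 against 854. The adapter sequence in the labels also starts with CC, and how many of the Cs in these tails belong to U6 is not known.

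Reads with no sequence, taken to end at the last base before the U run, lay with the ends of 1 to 3 Us, with a scaled ratio of 1.04 (1.02 to 1.06). The files do not say what that line holds.

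In wt, the other strain read without and with PNK, the values by U run had another form. All plain U reads together had a ratio per A-tailed read of 0.497 in rrp6Δ and 0.273 in wt, so that the value in rrp6Δ was 1.82 times that in wt (1.80 to 1.85). For 5 Us the strains lay close, with 0.209 in rrp6Δ and 0.193 in wt. Ends of 1 to 4 Us had 1.07 in rrp6Δ and 0.277 in wt, and the ratios of the single ends in rrp6Δ were 2.79 to 4.57 times those in wt. Ends of 6, 7 and 8 Us had 0.344, 0.430 and 0.571 in rrp6Δ and 0.543, 0.769 and 1.09 in wt. Reads with no sequence had 1.04 in rrp6Δ and 0.238 in wt. The yardstick itself rose more in wt. A-tailed ends held 14.6% of wt reads without PNK against 4.55% with it, a ratio of shares of 3.22, against 1.41 in rrp6Δ. By shares, ends of 1 to 4 Us had 1.52 in rrp6Δ and 0.892 in wt, and the 5-U end 0.296 and 0.622. The low scaled values of the short wt ends and of the wt 5-U end thus reflect that rise more than a fall in their own shares. The strains therefore lay close at 5 Us per A-tailed read and not by shares.

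This comparison between strains rests on single libraries and was not tested. In either strain, with 1 library for each treatment, leaving out PNK cannot be told apart from any other difference between the libraries. The wt library without PNK had an N in 0.0244% of reads and the wt library with PNK in none, a gap not seen in rrp6Δ, and its part in the result was not tested. The yardstick was also less even there: the ends with 1 A had ratios from 0.692 for 1 U to 1.68 for 8 Us in wt, where this 8-U end had 721 reads without PNK and 83 with it, and from 1.41 to 0.892 for the same ends in rrp6Δ.

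**Figure D4:**
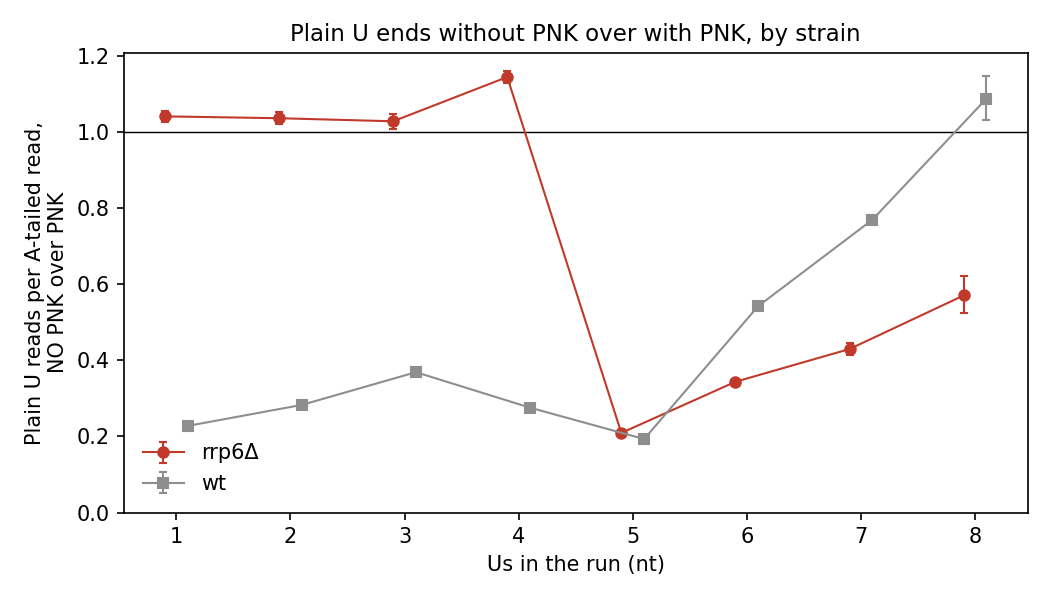
Plain U reads per A-tailed read, without PNK over with PNK, against the number of Us in rrp6Δ (red) and wt (grey), 1 library for each treatment; error bars are exact 95% counting intervals. At 5 Us the strains lie at 0.209 and 0.193, while at 1 to 4 Us rrp6Δ lies between 1.03 and 1.14 and wt between 0.228 and 0.369. By shares, not shown, the ratio of the 5-U end was 0.296 in rrp6Δ and 0.622 in wt.

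The PNK-treated mpn1Δrrp6Δ library shows the ends where the trimming enzyme is missing as well. The 5-U end had 15.0 reads per 100 A-tailed reads in rrp6Δ (NO PNK), 8.22 in mpn1Δrrp6Δ and 71.7 in rrp6Δ. For the 6-U end these values were 9.22, 6.49 and 26.8, and for the 7-U end 1.44, 1.03 and 3.34. For the 1-U to 4-U ends together they were 46.5, 10.6 and 43.4. At 5 to 7 Us the values of rrp6Δ (NO PNK) thus lay nearer to those of mpn1Δrrp6Δ, and at 1 to 4 Us nearer to those of rrp6Δ. A-tailed ends held 55.3%, 75.8% and 39.1% of all reads in the same order of libraries. Values per A-tailed read are therefore low in mpn1Δrrp6Δ partly through its larger A-tailed class. As shares of reads, the 5-U end held 8.31%, 6.23% and 28.1%, and the 1-U to 4-U ends together 25.7%, 8.06% and 17.0%. The share of A-tailed reads at 5 Us was 78.3% in rrp6Δ (NO PNK), 87.3% in mpn1Δrrp6Δ and 43.0% in rrp6Δ.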

How the data were processed

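Per the labels' protocols, an adapter was ligated to 3 µg of RNA with 120 pmol of adapter, and U6 was amplified and sequenced. The deposited files hold counts: reads per distinct end sequence after the constant part of U6, not normalized. The submitters' processing notes name CASAVA 1.8.2 and cutadapt without saying what each did; the filters and genome build were not given in the sources used here. Coordinates come from ASM294v3.

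Groups came from the sample titles, 1 library each, so no p-value was made. Shares are of reads with a sequence, with exact (Clopper-Pearson) 95% intervals. Ratios, single and pooled, have exact conditional intervals, and that of the between-strain ratio is log-normal. Scaled ratios divide by A-tailed reads, and their exact intervals treat that total as fixed. Ends analysed one by one were all plain U and A-tailed ends that reached 100 reads in each file; the text gives the rarer A-tailed ones as ranges, and names too the ends just under that minimum, the 3 commonest others of each library and, chosen after their values were seen, tails with C or G. The members, lists and settings were chosen with earlier results of these data known. On simulated data, 100 draws from 3805 ends with a true plain U ratio of 0.3 gave 0.297 to 0.303. The simulation gave every plain U end that ratio and left A-tailed ends unchanged, so it checks the calculation and not the yardstick. Alternatives were the read minimum, the yardstick, the size rule, the line with no sequence, ends of 4 and 19 nt, and a last C. SciPy 1.17.1 and NumPy 2.4.6 were used under Python 3.11.15, with Matplotlib 3.10.9 for plots.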

Additional observations from a re-analysis of the deposited data

Results flagged for a closer look

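Several values went opposite ways in rrp6Δ and wt when PNK was left out, with counting intervals that exclude no change in each strain. Each rests on single libraries, and the difference between strains was not tested. The ratio of shares, without PNK over with PNK, was 1.47 in rrp6Δ and 0.733 in wt for the 1-U end, 1.47 and 0.910 for the 2-U end, and 1.62 and 0.887 for the 4-U end. It was 0.486 in rrp6Δ and 1.75 in wt for the 6-U end, 0.608 and 2.47 for the 7-U end, and 0.807 and 3.50 for the 8-U end. Per A-tailed read the 6-U and 7-U ends did not go opposite ways. Their ratios were 0.344 and 0.430 in rrp6Δ and 0.543 and 0.769 in wt. On that scale the 1-U, 2-U, 4-U and 8-U ends still lay on opposite sides of 1 in the strains. The mean run of plain U ends differed by -0.884 nt in rrp6Δ and by 0.239 nt in wt.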

How the results depend on the processing

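No paired analysis was possible because each group had 1 library, and for the same reason no library could be left out. With ends of 4 and 19 nt left out, the A-tailed ratio of shares was 1.47, the plain U ratio per A-tailed read 0.428, the difference in mean plain U run -1.05 nt, the number of A-tailed ends higher 5 in place of 3, and the ratio of rrp6Δ to wt 1.56. That alternative removes the 4-U end itself. With only ends of 2 or more As as the yardstick, the plain U ratio was 0.491 and the ratio of rrp6Δ to wt 2.22, and with only ends of 1 A as the yardstick the ratio of rrp6Δ to wt was 1.79. Counting the line with no sequence in the denominator gave an A-tailed ratio of shares of 1.40. A-tailed ends higher by shares numbered 8 with a minimum of 10 reads, 0 with a minimum of 1000 reads and 0 with a size rule of 2 times, so that count is not stable. The number of plain U ends lower per A-tailed read was 4 or 3 under all 8 alternatives. Over them the scaled ratio of the 5-U end ran from 0.207 to 0.211 and that of the 6-U end from 0.339 to 0.344. The read minimums and the size rule leave the ratio of a single end as it is. Of the 184 ratios of single ends that another setting did alter, 165 stayed within their counting intervals, 19 moved beyond them and 0 of those past the size rule changed direction. Counting error limits the ends under 1000 reads most, and differences between libraries of the same kind could not be seen in this design.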

Other observations

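Ends whose A tail was followed by Us again held 0.346% of reads in rrp6Δ without PNK (2247 reads) and 0.266% with it (1878 reads), or 0.919 times as many per A-tailed read without PNK (0.864 to 0.978). In wt that ratio was 1.70. Ends whose first base is not a U held 0.767% without PNK and 0.514% with it in rrp6Δ, a ratio per A-tailed read of 1.05 (1.01 to 1.10), and 0.714 in wt. The end of 5 Us followed by ACCA had 165 reads without PNK and 201 with it, a scaled ratio of 0.631 (0.510 to 0.779). It was lower past the size rule, apart from the shorter tails that start with AC.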
